A study of Caenorhabditis elegans with 32 samples.

Results

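The genes described here encode the thin filament of nematode muscle and its remodelling: the 5 actins act-1 to act-5, the tropomyosin gene lev-11, and the actin regulators unc-60, unc-78 and unc-94. They were chosen by name, and 9 of the 46748 genes in the count table matched. The remaining name, tmd-1, matched no gene in the table and is a second name of the tropomodulin UNC-94. Counts came from 16 libraries of Caenorhabditis elegans of the strain WBM1339, which carries FLAG-tagged ribosomal subunits. Worms were fed dimt-1 RNAi bacteria or the empty vector (EV, the control RNAi) from the L1 larva and were collected as young adults. RNAi of dimt-1, which encodes an 18S rRNA methyltransferase, was compared with EV in RNA bound to the FLAG-tagged ribosomes of muscle (translating ribosome affinity purification, TRAP) and in polyA RNA of the whole-worm lysate (total RNA). Each of the 4 groups (TRAP on dimt-1 RNAi, TRAP on EV, total RNA on dimt-1 RNAi and total RNA on EV) held 4 biological replicates. The promoter that drives the tagged subunit in WBM1339 is not given in the sources used here, and the germline libraries of the same study were not analysed here.

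Muscle contracts by sliding of myosin thick filaments along thin filaments of polymerized actin. Tropomyosin lies along the filament and, with troponin, makes its use by myosin depend on calcium. Proteins of the actin depolymerizing factor (ADF)/cofilin family sever filaments and release monomers, AIP1 speeds that disassembly, and tropomodulin caps the pointed ends. In C. elegans, act-1 to act-4 encode nearly identical actins used in muscle and other tissues, whereas ACT-5 builds the microvilli of the intestine and the excretory canal. UNC-60 supplies the ADF/cofilin isoforms UNC-60A and UNC-60B, UNC-78 is AIP1, and mutants of several of these genes have disorganized body wall muscle.

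In the WBcel235 genome act-1 (WBGene00000063), act-2 (WBGene00000064) and act-3 (WBGene00000065) lie within one stretch of chromosome V, at chrV:11081052-11082415 on the plus strand, chrV:11076777-11078154 on the minus strand and chrV:11071690-11074498 on the minus strand. act-4 (WBGene00000066) is at chrX:4960621-4964413 and act-5 (WBGene00000067) at chrIII:13604412-13606066. Their similarity decides which reads can be told apart, so 30 coding bases of each actin are shown from the RefSeq WBcel235 genome. Capitals mark the bases that differ from act-4. The window was picked to hold many differences between the genes, so it is not typical of the whole coding sequence.
act-1: atTgtCggaAgAccaCgTcatcaaggAgtC
act-2: atTgtCggaAgAccTCgTcatcaaggAgtC
act-3: atTgtCggaAgAccaCgTcatcaaggAgtC
act-4: atcgttggacgcccaagacatcaaggtgtg
act-5: atcgtCggacgcccaCgTcatcaGggAgtg
These are coding positions 103 to 132 of act-1 to act-4 and 100 to 129 of act-5. They lie at chrV:11081175-11081204, chrV:11077996-11078025, chrV:11073112-11073141, chrX:4962845-4962874 and chrIII:13605938-13605967.

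act-1 and act-3 had the same 30 bases, and act-2 differed from act-4 at 9 of them. Over the whole coding sequence of 1128 bases act-1 and act-3 were 100% identical. Both were 96.2% identical to act-2 and 94.1% identical to act-4, and act-5 was 82.2 to 85.0% identical to the other actins. Of all stretches of 100 exonic bases in the annotated transcripts, 88.7% of act-1, 67.2% of act-3, 15.8% of act-2 and 1.13% of act-4 also occurred in another gene. For act-5, lev-11, unc-60, unc-78 and unc-94 that share was 0%. How reads with several equal matches were counted is not given in the sources used here. The split between act-1 and act-3 is therefore uncertain, and their sum is given beside the single genes. If such reads were left out, that sum and, to a lesser degree, act-2 would be counted too low. Levels per kilobase and shares among the actins would then be affected too.

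The remaining members were distinct in sequence but not free of limits on counting. unc-60 (chrV:1475086-1479576) shares an exon with F53E2.2, a gene on the same strand that matched no gene in the table, so the UNC-60A and UNC-60B products could not be told apart. lev-11 (chrI:14621169-14631094) has 20 annotated transcripts, counted together, and unc-94 (chrI:5992661-6003379) has 3. unc-78 lies at chrX:3408674-3411615. All 9 genes passed the filter on low counts in each comparison, and their counts ran from 894 to 1007954 per library.

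Library totals were 34794250 to 49782576 counts, and 78.1 to 90.0% of the counts between 1 and 20 in a library were even, which would follow from counting each read of a pair. Levels below are counts per 1000000 of library size (CPM) after scaling with edgeR's trimmed mean of M values (TMM), which assumes that most genes do not differ. The body wall muscle markers fitted the muscle label of the TRAP libraries: 12 of 12 were higher in TRAP than in total RNA under both RNAi. Of 6 pharyngeal muscle markers 0 were called higher and 2 lower on dimt-1 RNAi, and 1 higher and 1 lower on EV. Of 8 neuron markers 2 were called higher and 0 lower on dimt-1 RNAi, and 2 higher and 1 lower on EV. Of the germline markers 8 of 8 were lower in TRAP, and none was at 0 in all libraries of a group. The targeted gene, listed as E02H1.1, had 16.6, 19.7, 24.2 and 15.1 CPM in total RNA on dimt-1 RNAi, against 23.1, 25.8, 25.2 and 22.8 CPM on EV. The library labelled dimt-1 RNAi replicate 3 therefore lay within the EV range, while the other 3 lay below it. The summed CPM of 7 sperm markers in that library was 39.5, within the EV range of 34.1 to 44.0, and the highest dimt-1 RNAi library had 183. The RNAi comparisons are therefore also described without it. As it was picked for its likeness to EV, any call made without it may follow in part from that choice. In TRAP, E02H1.1 had 19.6, 21.0, 16.02 and 33.9 CPM on dimt-1 RNAi and 23.3, 10.8, 13.6 and 15.9 CPM on EV. The groups overlapped, and the mean was higher on dimt-1 RNAi (22.6 CPM) than on EV (15.9 CPM). A lower level of the targeted gene was thus not seen in TRAP.

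The first comparison asked which of these mRNAs were enriched on muscle ribosomes. The 4 muscle-type actins, tropomyosin and the 3 regulators were all higher in TRAP than in total RNA, and act-5 alone was lower. Together the 9 genes took 5.63, 6.34, 5.02 and 4.89% of the counts of TRAP libraries on dimt-1 RNAi, and 0.686 to 0.792% in total RNA on dimt-1 RNAi. On EV they took 5.81 to 6.16% in TRAP and 0.673 to 0.700% in total RNA.

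Of the actins counted singly, act-4 took the most counts in TRAP. The sum of act-1 and act-3 was higher there, with means of 32825 CPM on dimt-1 RNAi and 35749 CPM on EV. act-4 had means of 28462 and 33522 CPM in the same groups. It had 25757, 33596, 26992 and 27501 CPM in TRAP and 1310.3, 1145, 1209.8 and 1405 CPM in total RNA on dimt-1 RNAi. Under EV the levels were 34842, 37113, 29542 and 32591 CPM in TRAP and 1169, 1155, 1103 and 1062 CPM in total RNA. The fractions stood far apart in every replicate, with log2 fold changes of 4.49 ± 0.15 (SE) on dimt-1 RNAi and 4.90 ± 0.15 on EV.

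act-1 had 10832, 14383, 12170.3 and 10797 CPM in TRAP and 427, 415, 466 and 499 CPM in total RNA on dimt-1 RNAi. On EV the values were 16837, 18061, 13604 and 15763 CPM in TRAP and 448, 439.6, 426 and 442 CPM in total RNA. Its log2 fold change of TRAP over total RNA was 4.74 ± 0.15 on dimt-1 RNAi and 5.19 ± 0.15 on EV. act-3, the gene with the identical coding sequence, showed enrichment of a similar size.

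act-3 had 21456, 26919.9, 15908 and 18836 CPM in TRAP and 632, 594, 557 and 672 CPM in total RNA on dimt-1 RNAi. On EV act-3 had 20933, 21698, 16663 and 19435 CPM in TRAP and 542, 529, 518 and 537 CPM in total RNA. The log2 fold change was 5.08 ± 0.17 on dimt-1 RNAi and 5.21 ± 0.17 on EV, the highest estimates of the 9. With act-1 and act-3 summed it was 4.95 ± 0.16 on dimt-1 RNAi and 5.20 ± 0.16 on EV, between the values of the single genes.

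act-2 was enriched least among the muscle-type actins. It had 4454, 6019, 6414 and 5731 CPM in TRAP and 488, 561, 787 and 603 CPM in total RNA on dimt-1 RNAi. In EV worms it stood at 8606, 9301, 6794 and 7317 CPM in TRAP and 789, 818, 795 and 726 CPM in total RNA. The groups did not overlap, with log2 fold changes of 3.21 ± 0.16 on dimt-1 RNAi and 3.36 ± 0.16 on EV. act-2 accordingly made up 8.51 ± 1.54% (SD, n = 4) of the counts on act-1 to act-5 in TRAP and 19.5 ± 3.52% in total RNA on dimt-1 RNAi. On EV its share was 10.3 ± 0.468% in TRAP and 25.5 ± 0.668% in total RNA (p = 0.0286 in each RNAi by exact permutation, two-sided, which is the smallest that 4 against 4 allows; over 18 such tests, chosen after the values were seen, the adjusted p was 0.0303).

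act-5, the intestinal actin, ran the other way. It had 112, 93.2, 119.4 and 109 CPM in TRAP and 155, 144, 209 and 196 CPM in total RNA on dimt-1 RNAi. On EV act-5 had 83.02, 84.9, 118.5 and 123 CPM in TRAP and 188, 222, 191 and 166 CPM in total RNA. Every TRAP value lay below every total RNA value, with log2 fold changes of -0.70 ± 0.15 on dimt-1 RNAi and -0.90 ± 0.15 on EV. Its share of the actin counts was 0.165 ± 0.0345% in TRAP and 5.62 ± 0.661% in total RNA on dimt-1 RNAi, and 0.135 ± 0.0411% in TRAP and 6.24 ± 0.573% in total RNA on EV. Intestinal markers were present in TRAP, with a summed CPM of 7020 to 12991 on dimt-1 RNAi and 11197 to 14873 on EV for 8 genes, and their part in the act-5 counts was not tested.

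lev-11 encodes tropomyosin. It had 15924, 20737, 15912.5 and 16487 CPM in TRAP and 662, 564, 711 and 772 CPM in total RNA on dimt-1 RNAi. In EV worms the values were 21540.2, 22096, 19129 and 20679 CPM in TRAP and 656, 725, 622 and 605 CPM in total RNA. The log2 fold change was 4.67 ± 0.15 on dimt-1 RNAi and 5.0 ± 0.15 on EV, next to those of act-1 and act-4. Its log2 ratio to the summed act-1 to act-4 counts was -1.95 ± 0.0182 in TRAP and -2.13 ± 0.0980 in total RNA on dimt-1 RNAi, and -1.88 ± 0.0704 in TRAP and -2.14 ± 0.0826 in total RNA on EV (SD, n = 4). The fractions did not overlap in this ratio under either RNAi (p = 0.0286 by exact permutation, two-sided and unpaired as above, and 0.0303 when adjusted over the same 18 tests).

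The filament-disassembly genes were enriched to unequal degrees. unc-60 had 2453, 3156, 1758 and 2145 CPM in TRAP and 429, 479, 483 and 438 CPM in total RNA on dimt-1 RNAi. Values on EV were 3015, 2863, 2495 and 2858 CPM in TRAP and 485, 514, 507 and 520.4 CPM in total RNA. The fractions did not overlap, and the log2 fold change was 2.38 ± 0.14 on dimt-1 RNAi and 2.47 ± 0.14 on EV. unc-78, whose product acts with ADF/cofilin, had 214, 259, 172 and 232 CPM in TRAP and 10.7, 15.3, 16.3 and 15.1 CPM in total RNA on dimt-1 RNAi. On EV it had 241, 294, 183 and 204 CPM in TRAP and 14.7, 17.3, 16.7 and 15.3 CPM in total RNA, giving log2 fold changes of 3.93 ± 0.18 on dimt-1 RNAi and 3.85 ± 0.18 on EV. Low in total RNA, unc-78 was thus among the strongly enriched members.

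unc-94, the tropomodulin gene, had the smallest enrichment. It had 170.5, 255, 132 and 170.1 CPM in TRAP and 78.5, 75.4, 62.4 and 69.4 CPM in total RNA on dimt-1 RNAi. On EV it had 208, 181, 180.2 and 179.8 CPM in TRAP and 62.4, 61.6, 70.9 and 63.2 CPM in total RNA. The fractions did not overlap, and the log2 fold change was 1.35 ± 0.15 on dimt-1 RNAi and 1.54 ± 0.15 on EV.

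With edgeR's quasi-likelihood test and Benjamini-Hochberg adjustment over 15897 genes, 8 of 9 members were higher in TRAP than in total RNA and 1 of 9 was lower, at an adjusted p under 0.05, under each RNAi. Of all genes tested, 15.6% were higher and 9.34% lower on dimt-1 RNAi, and 15.7% were higher and 26.5% lower on EV (in either direction 24.9% on dimt-1 RNAi and 42.2% on EV). The members' adjusted p ran from 6.8e-16 to 0.00124 on dimt-1 RNAi and from 3.1e-16 to 6.5e-05 on EV. The fractions come from different sets of cells, so fewer cells of a type and less RNA per cell cannot be told apart in these levels. With scaling by library size alone the median log2 fold change of all genes was -1.58 on dimt-1 RNAi and -1.77 on EV, against medians with TMM of -0.16 on dimt-1 RNAi and -0.35 on EV. unc-94 then stood at -0.09 on dimt-1 RNAi and 0.10 on EV and was not called. Relative to the median of all genes, however, it stood at 1.49 on dimt-1 RNAi and 1.87 on EV under that scaling, and at 1.51 on dimt-1 RNAi and 1.88 on EV with TMM. Relative to the same median act-5 stood at -0.53 on dimt-1 RNAi and -0.55 on EV under library size scaling, and at -0.54 on dimt-1 RNAi and -0.56 on EV with TMM.

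**Figure D1:**
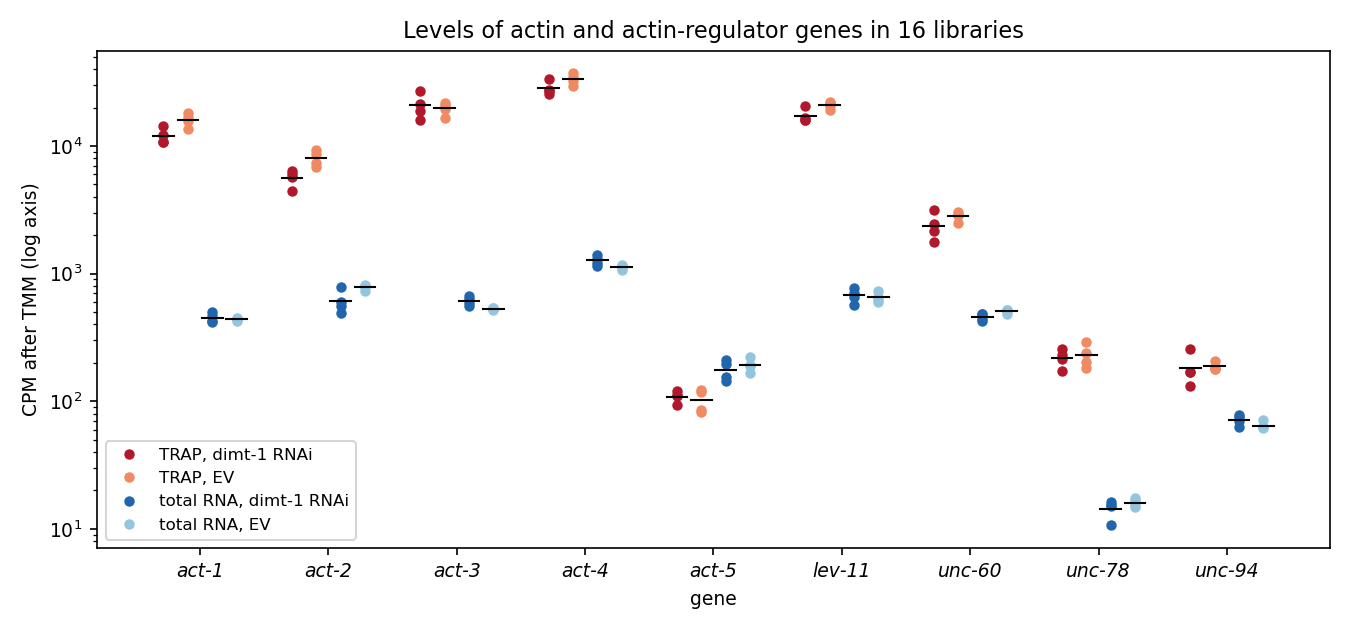
CPM after TMM (log axis) of the 9 genes in each of 16 libraries, with points for libraries and a line at the mean of each group of 4. act-5 alone is lower in TRAP than in total RNA. Of the genes counted singly, act-4 takes the most counts in TRAP, with 25757 to 33596 CPM on dimt-1 RNAi and 29542 to 37113 CPM on EV.

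**Figure D2:**
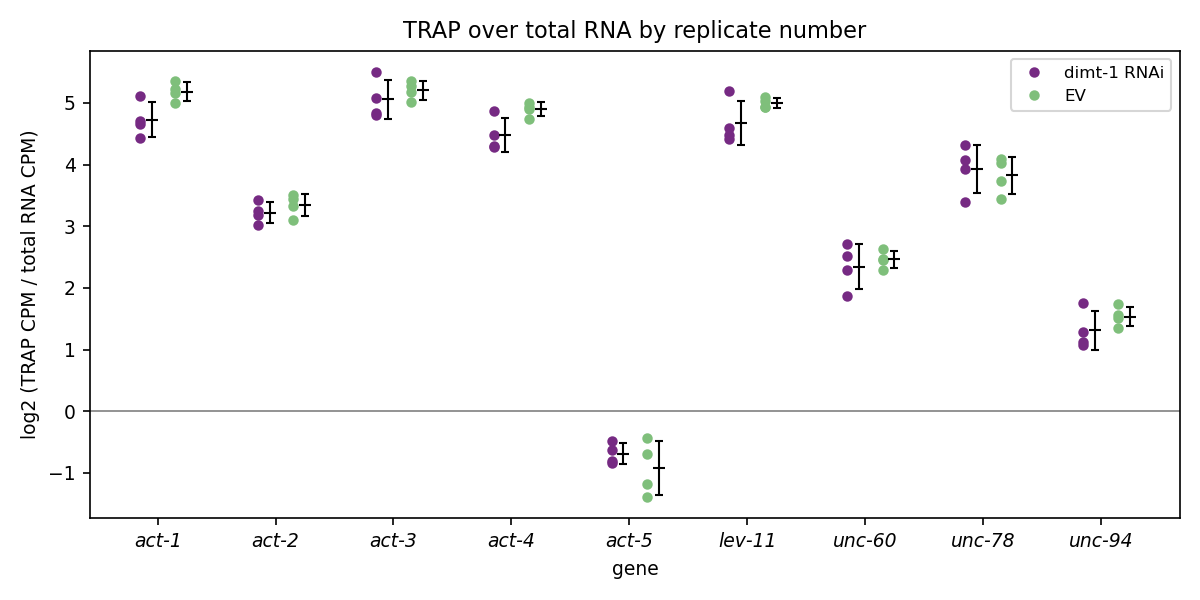
Log2 ratio of TRAP CPM to total RNA CPM by replicate number, with points for single ratios and a cross with bars for the mean ± SD (n = 4). Ratios of act-1, act-3, act-4 and lev-11 lie between 4.29 and 5.50, those of unc-94 between 1.08 and 1.76, and those of act-5 below 0.

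Levels of different genes were compared per kilobase of exon (RPKM computed from the CPM). For act-1 and act-3 these levels depend on how shared reads were counted, so their places in the order are uncertain. In TRAP on dimt-1 RNAi the order was act-4 (17777 ± 2186 RPKM, SD, n = 4), act-3, act-1 and lev-11, each overlapping its neighbour, then act-2 and unc-60. unc-78, act-5 and unc-94 followed at 108, 85.4 and 72.4 RPKM and overlapped. In TRAP on EV act-4 led with 20938 ± 2019 RPKM and did not overlap act-1 at 12711 ± 1496 RPKM, which overlapped act-3. Below them lev-11, act-2 and unc-60 stood at 8754, 6249 and 3916 RPKM without overlap, and unc-78, act-5 and unc-94 again overlapped.

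Total RNA gave another order. On dimt-1 RNAi act-4 led with 792 ± 71.4 RPKM and did not overlap unc-60 at 638 ± 38.7 RPKM, while unc-60, act-2, act-3 and act-1 each overlapped the next. On EV unc-60 had 707 ± 21.8 RPKM, overlapping act-4 at 701 ± 30.8 RPKM, followed without overlap by act-2 at 611 ± 30.97 RPKM. act-1 and act-3 overlapped at 347 and 341 RPKM, and unc-78 was last at 7.07 RPKM on dimt-1 RNAi and 7.89 RPKM on EV. The unc-60 values use its annotated exons of 717 bases. With the exons of F53E2.2, which might share its counts, the length is 1924 bases, and unc-60 in total RNA would have 238 ± 14.4 RPKM on dimt-1 RNAi and 263 ± 8.13 RPKM on EV, below the means of lev-11 at 284 and 274 RPKM in the same groups. Its place in the order therefore rests on which exons were counted.

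Across the 16 libraries the genes outside the members whose log2 CPM followed lev-11 most closely, of 7387 with a mean of at least 8 CPM, were csq-1 (calsequestrin, a calcium store protein of the sarcoplasmic reticulum), tni-3 (troponin I), ZK1058.9, tnt-2 (troponin T) and clik-1 (a calponin-like filament protein). Their Pearson r was 0.999 to 1.00, and the points share the contrast of TRAP with total RNA. For act-5 they were icp-1, C49C3.4, lec-8 (a galectin), egl-45 (a translation initiation factor subunit) and vig-1, with r from 0.943 to 0.966.

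The other actin genes were described in lists by role. Of all genes, 15.6% were called higher and 9.34% lower on dimt-1 RNAi, and 15.7% higher and 26.5% lower on EV. TRAP libraries differed between the RNAi in the number of genes with low counts, given below, and the part of this in the lists was not tested. Of 13 genes that bind monomers, sever or cap, 7 were higher and 0 lower in TRAP than in total RNA on dimt-1 RNAi, and 7 were higher and 2 lower on EV. pfn-3, a profilin of body wall muscle, had log2 fold changes of 5.90 ± 0.21 on dimt-1 RNAi and 6.34 ± 0.22 on EV, while the profilins pfn-1 and pfn-2 were called lower on EV at -0.29 ± 0.12 and -0.50 ± 0.13. gsnl-1 (gelsolin-like, a severing protein) stood at 5.56 ± 0.22 on dimt-1 RNAi and 5.76 ± 0.22 on EV, and cas-1 (cyclase-associated protein, which recycles monomers) at 3.46 ± 0.13 on dimt-1 RNAi and 3.22 ± 0.13 on EV. A second tropomodulin gene, tmd-2, stood at 2.57 ± 0.24 on dimt-1 RNAi and 2.94 ± 0.25 on EV.

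Of 17 genes that bind or crosslink filaments, 8 were higher and 1 lower on dimt-1 RNAi, and 8 were higher and 5 lower on EV. The calponin-family genes unc-87, clik-1 and cpn-3 had log2 fold changes of 5.91, 5.82 and 5.74 on dimt-1 RNAi and 6.02, 6.0 and 6.11 on EV, and the LIM protein gene alp-1 had 5.44 on dimt-1 RNAi and 5.54 on EV. plst-1 (plastin, a bundling protein) was lower, at -1.43 ± 0.45 on dimt-1 RNAi and -1.80 ± 0.45 on EV, and the spectrin gene sma-1 was lower on EV at -0.86 ± 0.19. Both list medians, 0.44 on dimt-1 RNAi and 1.52 on EV, stood above the medians of all genes given above.

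Of 15 genes that nucleate actin, 3 were higher and 2 lower on dimt-1 RNAi, and 2 were higher and 4 lower on EV. The formin gene fhod-1, known from body wall muscle growth, was the highest at 1.69 ± 0.23 on dimt-1 RNAi and 1.97 ± 0.23 on EV. abi-1 of the WAVE complex was lower, at -0.38 ± 0.12 on dimt-1 RNAi and -0.95 ± 0.12 on EV. The list medians were 0.03 on dimt-1 RNAi and -0.20 on EV, and the EV counts were near the shares of all genes called, 15.7% higher and 26.5% lower.

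Of 14 genes of the chaperonin CCT and of prefoldin, which fold actin and tubulin, 7 were higher and 1 lower on dimt-1 RNAi, and 8 were higher and 1 lower on EV. pfd-4, pfd-2 and pfd-1 led with 2.40, 2.32 and 2.19 on dimt-1 RNAi and 2.48, 2.05 and 1.95 on EV, and cct-8 was the lower gene at -1.16 ± 0.24 on dimt-1 RNAi and -0.81 ± 0.23 on EV. Of 7 genes of the intestinal apical membrane and terminal web, among which ACT-5 works, 1 was higher and 0 lower on dimt-1 RNAi, and 0 were higher and 1 lower on EV, the last being the intermediate filament gene ifb-2 at -1.0 ± 0.24. act-5 itself was called lower under both RNAi.

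**Figure D3:**
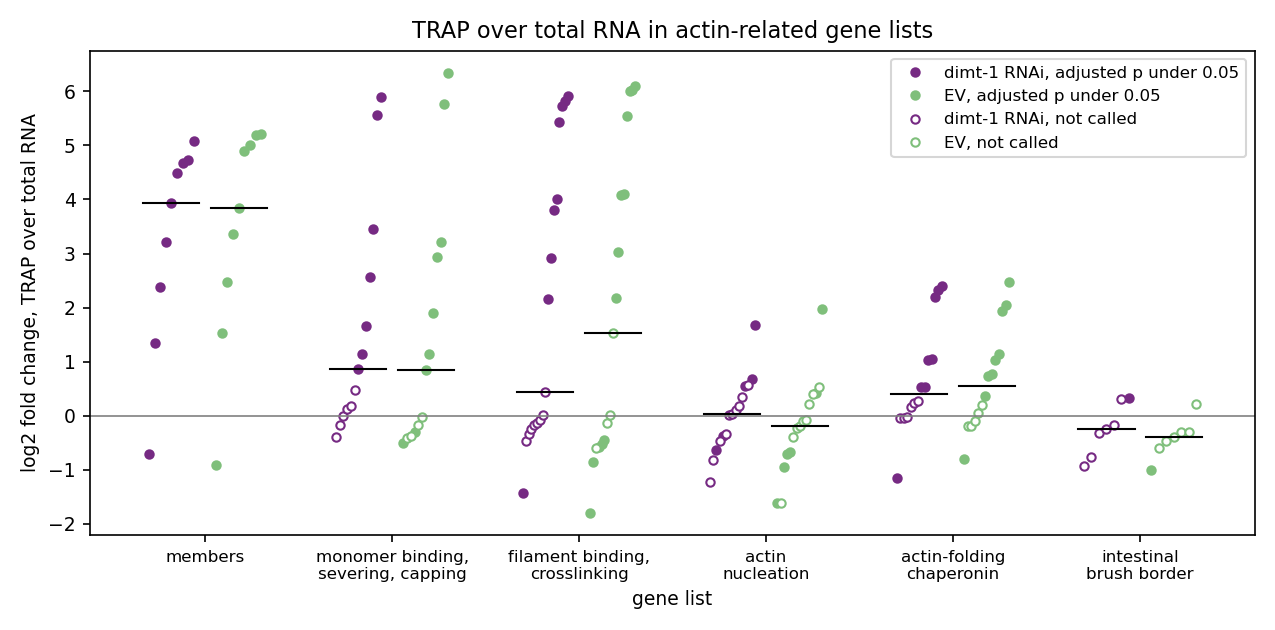
Log2 fold change of TRAP over total RNA for the 9 members and for 5 lists of actin-related genes, with filled points at an adjusted p under 0.05, open points not called and a line at each list's median. The members' medians are 3.93 on dimt-1 RNAi and 3.85 on EV, the filament list reaches 5.91 on dimt-1 RNAi and 6.11 on EV, and the brush border list reaches no more than 0.33.

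The second comparison asked whether dimt-1 RNAi changed the levels of these mRNAs in whole worms. With all 8 libraries of total RNA, 0 of 9 members were called by edgeR, against 0% of 15441 genes tested. At an unadjusted p under 0.05 there were 4 of 9 members (act-2, act-3, act-4 and unc-94) and 2504 of all genes. act-3 was at 632, 594, 557 and 672 CPM on dimt-1 RNAi, above all 4 EV libraries, with a log2 fold change of 0.25 ± 0.08 (SE) and an adjusted p of 0.160. act-2 was at 488, 561, 787 and 603 CPM on dimt-1 RNAi and 726 to 818 CPM on EV, and the groups overlapped only through the library labelled dimt-1 RNAi replicate 3. Its log2 fold change was -0.32 ± 0.11, with an adjusted p of 0.192 by edgeR. act-4 stood at 0.22 ± 0.08 and unc-94 at 0.19 ± 0.08, with adjusted p of 0.227 and 0.294 by edgeR, and both overlapped EV.

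The remaining members were closer to EV. act-1 had a log2 fold change of 0.08 ± 0.07, lev-11 of 0.10 ± 0.10, act-5 of -0.08 ± 0.12, unc-60 of -0.11 ± 0.06 and unc-78 of -0.12 ± 0.13. The summed act-1 and act-3 counts stood at 0.18 ± 0.07 (adjusted p = 0.259 by edgeR) and the summed act-1 to act-4 counts at 0.07 ± 0.07. unc-60 was below EV in every library, with a highest value of 483 CPM on dimt-1 RNAi and a lowest of 485 CPM on EV. Groups did not overlap in 1 member upward (act-3) and 1 downward (unc-60), against 2.8% and 3.81% of all genes.

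Without the library labelled dimt-1 RNAi replicate 3, 4 of 9 members were called, against 15% of 15845 genes (6.99% higher and 8.03% lower). That library was left out for its likeness to EV, so these calls may follow in part from that choice. act-3 stood at 0.30 ± 0.06 (adjusted p = 0.00403), act-4 at 0.25 ± 0.08 (0.0349) and unc-94 at 0.26 ± 0.07 (0.0197), all higher on dimt-1 RNAi, and act-2 was lower at -0.45 ± 0.07 (0.000429), all by edgeR. Over all alternatives the adjusted p ran from 0.00403 to 0.423 for act-3, from 0.0229 to 0.530 for act-4, from 0.0197 to 0.668 for unc-94 and from 0.000429 to 0.460 for act-2. With all libraries kept, DESeq2 called 1 member (act-3, adjusted p = 0.0311) and limma voom with library quality weights called 3 (act-2, act-3 and act-4, adjusted p = 0.00593, 0.00655 and 0.0229).

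Markers of several other tissues moved in the same contrast. Without the library labelled dimt-1 RNAi replicate 3, 6.99% of all genes were called higher and 8.03% lower. Without that library 6 of 7 sperm markers were called higher and 0 lower, and 5 of 6 pharyngeal muscle markers were called higher, with a list median of 0.63. Sperm markers were part of the reason for leaving that library out, so their calls follow in part from that choice. Of 8 intestine markers 0 were called higher and 7 lower, with a median of -0.43. Of 12 body wall muscle markers 3 were called higher, with a median of 0.15, and of 6 hypodermis markers 2 were called higher. Of 8 neuron markers 0 were called, and of 8 germline markers 0 were called higher and 1 lower, with a germline median of 0.007. The part of these markers in the actin values was not tested.

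Among the actin-related lists, 0 genes were called with all libraries of total RNA. In the chaperonin list 0 of 14 genes had a positive value, with a median of -0.25 against 0.01 over all genes, led by cct-8 at -0.36 ± 0.11 and cct-6 at -0.36 ± 0.09 (adjusted p = 0.155 and 0.114 by edgeR). Without the library labelled dimt-1 RNAi replicate 3, 11 of 14 were called lower and 0 higher, among them all 8 CCT subunits, with a median of -0.36. The nucleation list then had 0 called higher and 3 lower of 15 (arx-1, arx-6 and cyk-1), the monomer and capping list 0 higher and 3 lower of 13 (pfn-1, cap-1 and tth-1), and the filament list 2 higher and 3 lower of 17, with the alpha-actinin gene atn-1 higher at 0.25 ± 0.08 and sma-1 lower at -0.39 ± 0.09. Of the brush border list 3 of 7 were called higher and 0 lower, with ifc-2 at 0.68 ± 0.11, while act-5 was not called at -0.16 ± 0.11.

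The third comparison asked whether the ribosome-bound level in muscle changed. The TRAP libraries differed in the number of genes with 1 to 20 counts, which was 3591, 3674, 204 and 3248 on dimt-1 RNAi and 384, 205, 535 and 310 on EV. 3 of the 4 dimt-1 RNAi libraries thus stood apart from EV, and the library labelled replicate 3 lay with EV. Outside that library this difference cannot be told apart from the RNAi in TRAP or in translation efficiency, and its part in the members' values was not tested. In TRAP 0 of 9 members were called by edgeR, against 0% of 12164 genes; at an unadjusted p under 0.05 there were 2 members and 976 genes in all. act-2 was at 4454 to 6414 CPM on dimt-1 RNAi, below all 4 EV libraries at 6794 to 9301 CPM, with a log2 fold change of -0.52 ± 0.16 and an adjusted p of 0.345 by edgeR. Groups did not overlap in this 1 member downward and 0 upward, against 2.04% and 4.85% of all genes. act-1 was at 10797 to 14383 CPM on dimt-1 RNAi and 13604 to 18061 CPM on EV, overlapping by 1 library on each side, with a log2 fold change of -0.43 ± 0.15 and an adjusted p of 0.401. With act-1 and act-3 summed, whose split is uncertain, the log2 fold change in TRAP was -0.14 ± 0.16 (adjusted p = 0.963 by edgeR).

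DESeq2 called both act-1 and act-2 (adjusted p = 0.0187 each), and limma voom called 0 members; over all alternatives the adjusted p ran from 0.0187 to 0.923 for act-1 and from 0.0187 to 0.875 for act-2. lev-11 stood at -0.29 ± 0.14, unc-60 at -0.26 ± 0.17, act-4 at -0.25 ± 0.14, unc-78 at -0.09 ± 0.18, unc-94 at -0.06 ± 0.18, act-3 at 0.06 ± 0.17 and act-5 at 0.06 ± 0.17. The median over the members was -0.25, against 0.05 over all genes tested. The summed CPM of the 12 muscle markers was 123832 to 171999 on dimt-1 RNAi and 142057 to 181093 on EV, and its part in these values was not tested. Without the library labelled dimt-1 RNAi replicate 3, 0 of 9 were called, against 0.374% of 13118 genes. act-2 then stood at -0.58 ± 0.17, act-1 at -0.43 ± 0.18, lev-11 at -0.25 ± 0.16, act-4 at -0.22 ± 0.17 and unc-60 at -0.13 ± 0.16. act-3 was at 0.18 ± 0.18, unc-94 at 0.07 ± 0.17, and act-5 and unc-78 were both at 0.02, unc-94 and unc-78 having turned sign.

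Of the actin-related lists 0 genes were called in TRAP. pfn-3 had the most negative value of the monomer list at -0.68 ± 0.18 (adjusted p = 0.276 by edgeR), and cct-8 that of the chaperonin list at -0.77 ± 0.29 (0.462). The chaperonin list had a median of -0.27, with 1 of 14 genes positive, and without the library labelled dimt-1 RNAi replicate 3 its median was -0.27 with 2 of 14 positive. 0 genes of these lists were called in TRAP without that library.

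The last comparison asked about translation efficiency, the ratio of TRAP to total RNA, tested between the RNAi as the interaction in 1 edgeR model of all 16 libraries. Its denominator holds every tissue of the worm, so tissue proportions enter the ratio. 0 of 9 members were called, against 0% of 15897 genes; at an unadjusted p under 0.05 there were 2 members (act-1 and act-4) and 2183 genes in all. For act-1 the log2 ratios were 4.67, 5.12, 4.71 and 4.43 on dimt-1 RNAi and 5.23, 5.36, 4.997 and 5.16 on EV. They overlapped through dimt-1 RNAi replicate 2, and the difference was -0.46 ± 0.18 (adjusted p = 0.246). For act-4 the log2 ratios were 4.30, 4.88, 4.48 and 4.29 on dimt-1 RNAi and 4.90, 5.01, 4.74 and 4.94 on EV, overlapping through the same replicate, with a difference of -0.41 ± 0.18 (adjusted p = 0.303).

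The difference was -0.33 ± 0.18 for lev-11, -0.19 ± 0.21 for unc-94, -0.14 ± 0.21 for act-2, -0.13 ± 0.20 for act-3, -0.09 ± 0.19 for unc-60, 0.09 ± 0.22 for unc-78 and 0.21 ± 0.21 for act-5. The median over members was -0.14, against 0.16 over all genes. DESeq2 called act-1 and act-4 (adjusted p = 0.0240 and 0.0370), both lower on dimt-1 RNAi, and limma voom called 0 members; over all alternatives the adjusted p ran from 0.0240 to 0.564 for act-1 and from 0.0370 to 0.594 for act-4. With act-1 and act-3 summed the difference was -0.26 ± 0.19, and without the library labelled dimt-1 RNAi replicate 3, 0 of 9 members were called, against 0.257% of 16313 genes. act-1 was then at -0.44 ± 0.18, act-4 at -0.41 ± 0.17 and lev-11 at -0.26 ± 0.18. act-2 and act-3 were both at -0.06, unc-94 was at -0.12, unc-60 turned to 0.06 ± 0.17, unc-78 stood at 0.26 ± 0.22 and act-5 at 0.25 ± 0.22.

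**Figure D4:**
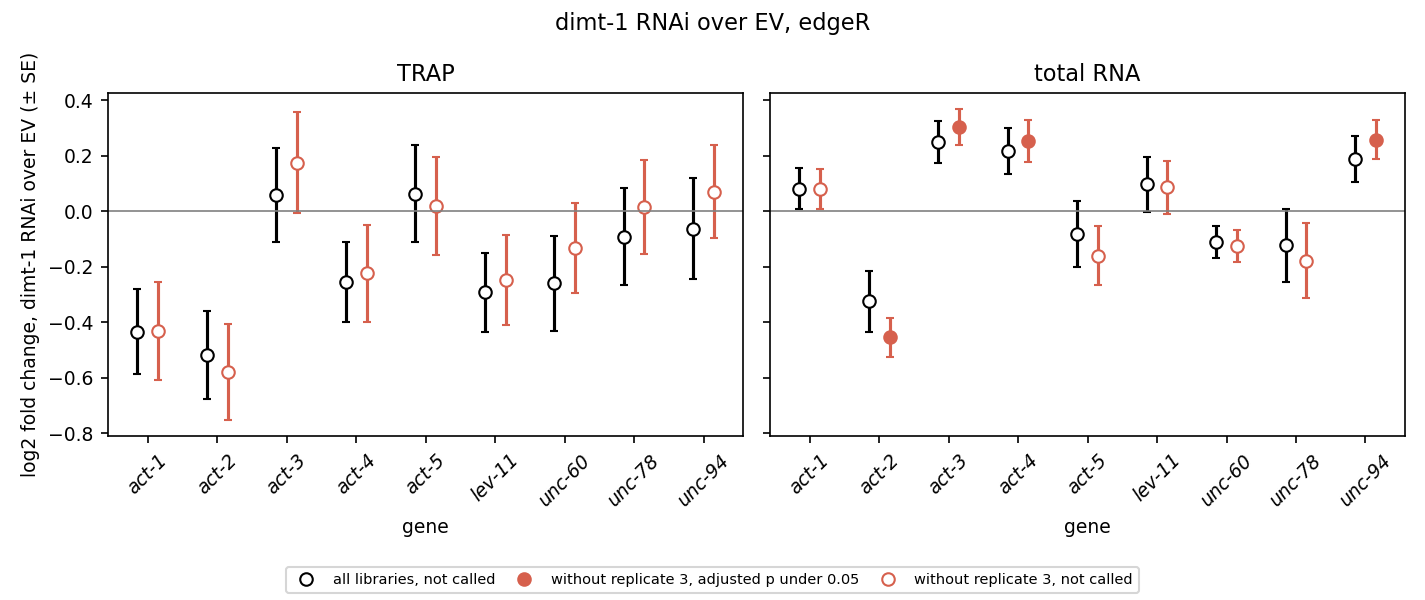
Log2 fold change ± SE of dimt-1 RNAi over EV in TRAP and total RNA by edgeR, with all libraries (black) and without the library labelled dimt-1 RNAi replicate 3 (red), filled where the adjusted p was under 0.05. Only act-2, act-3, act-4 and unc-94 in total RNA are filled, and only without that library.

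A share within a library does not depend on how libraries are scaled, so the mix of actins was compared as well. In total RNA act-2 made up 16.2, 19.6, 24.4 and 17.9% of the counts on act-1 to act-5 on dimt-1 RNAi, against 25.2, 25.9, 26.2 and 24.7% on EV. Every dimt-1 RNAi library was lower than every EV library, and the library labelled replicate 3 was the closest to EV. The share of act-4 in total RNA was 40.7 ± 2.55% on dimt-1 RNAi and 36.6 ± 0.472% on EV, again without overlap. Shares of a library sum to a fixed whole, so a lower share of act-2 goes with higher shares among the other actins. The act-2 and act-4 shares are therefore not independent results. In TRAP the share of act-1 was 18.0 ± 1.21% on dimt-1 RNAi and 20.7 ± 0.263% on EV without overlap, and that of act-3 was 30.8 ± 3.81% on dimt-1 RNAi and 25.4 ± 0.427% on EV, overlapping only through the library labelled replicate 3.

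Each of the 3 shares without overlap had p = 0.0286 in an exact two-sided permutation test, the smallest that 4 against 4 allows, and an adjusted p of 0.171 over 18 tests, so none passed. Over 18 tests, an adjusted p under 0.05 would have needed most of them at that smallest p. The test therefore could not decide whether single shares changed. The mean TRAP share on dimt-1 RNAi was below EV for act-1 and above it for act-3, the pair whose split is uncertain. The share of act-5 in total RNA was 5.62 ± 0.661% on dimt-1 RNAi and 6.24 ± 0.573% on EV. The log2 ratios of lev-11, unc-60, unc-78 and unc-94 to the summed act-1 to act-4 counts overlapped between the RNAi in both fractions, with differences from -0.21 to 0.14 and exact permutation p from 0.0857 to 0.8.

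Without the library labelled dimt-1 RNAi replicate 3 the smallest exact permutation p is 0.0571, so no share or ratio could pass. The shares of act-1 in TRAP (17.4% on dimt-1 RNAi and 20.7% on EV) and of act-2 and act-4 in total RNA (17.9% and 41.7% on dimt-1 RNAi, 25.5% and 36.6% on EV) were again without overlap. The groups then did not overlap in 3 further shares. act-2 in TRAP was at 7.88 ± 1.07% on dimt-1 RNAi and 10.3 ± 0.468% on EV. act-3 was at 32.5 ± 2.28% on dimt-1 RNAi and 25.4 ± 0.427% on EV in TRAP, and at 20.5 ± 0.571% on dimt-1 RNAi and 17.3 ± 0.689% on EV in total RNA. The log2 ratio of unc-94 in TRAP also ceased to overlap, at -8.45 ± 0.122 on dimt-1 RNAi and -8.68 ± 0.157 on EV, a difference of 0.23 against 0.13 with all libraries. The 7 remaining ratios overlapped, with differences from -0.26 to 0.22.

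**Figure D5:**
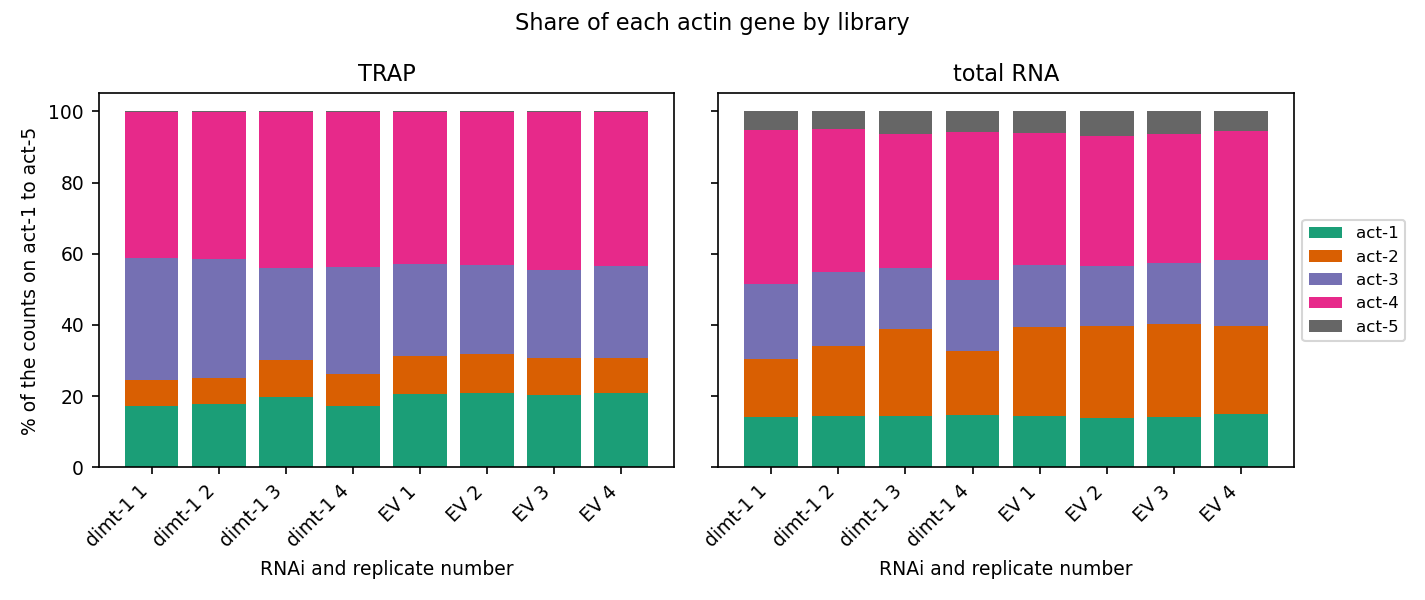
Percent of the counts on act-1 to act-5 that each gene took, as stacked bars for each library of TRAP and total RNA. act-5 is a thin band of up to 7.003% in total RNA and too small to see in TRAP, and act-2 takes 16.2 to 24.4% of total RNA counts on dimt-1 RNAi and 24.7 to 26.2% on EV.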

How the data were processed

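For the muscle experiment the authors deposited whole-number counts of each gene in 16 libraries, not normalized. STAR 2.7.2b is named in the submitters' processing notes; how the muscle libraries were counted, and whether strand was used, is not given in the sources used here. Libraries were made with a stranded polyA kit. Samples were grouped by their labels, and 0 columns were left unused. No libraries were merged, since even the most alike 2 differed in the counts of 11856 genes. Of 46748 identifiers 43693 matched a symbol.

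Genes were tested with edgeR 4.0.16 (filterByExpr, TMM, glmQLFit, glmQLFTest) in R 4.3.3, with Benjamini-Hochberg adjustment over all genes tested and calls at an adjusted p under 0.05. TRAP over total RNA and translation efficiency came from 1 fit of 16 libraries. The fit was tested on simulated data with 200 genes changed by a log2 of 2. It recovered 91% of them in total RNA, 68% in TRAP and 61% for translation efficiency, with 6.19, 4.23 and 3.94% of calls wrong. Smaller changes, such as those of the members between the RNAi, were not simulated. TMM factors were 0.525 to 0.692 in TRAP and 1.56 to 1.78 in total RNA. Shares and ratios were tested with exact permutation in scipy 1.17.1. Alternatives were DESeq2 1.42.0 size factors, library size alone, a minimum of 10 counts, no filter, DESeq2, limma 3.58.1 voom with quality weights, leaving out single libraries and a block on the replicate number; the lysate as a block, sums of act-1 with act-3 and of act-1 to act-3, and list counts without one library were added after seeing the data.

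Members and gene lists were chosen with earlier results of these data known. Named in the text were all members, up to 4 called genes of each list in each direction (the 2 largest changes where none was called), and the 5 genes that followed lev-11 and act-5 most closely on log2(CPM + 0.5). Genes of the lists named from the fit without one library were chosen after their values were seen. p-values measure the spread between these biological replicates. Counts of paired reads are not independent molecules.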

Additional observations from a re-analysis of the deposited data

Results flagged for a closer look

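Of 72 groups of 4 values tested, 3 held a value far from the other 3 by Dixon's 95% critical value for the gap to the nearest value; chance flags about 1 in 20. lev-11 in TRAP on dimt-1 RNAi had 20737 CPM in replicate 2, against 15912.5 to 16487 CPM in the other 3. unc-94 in TRAP on EV had 208 CPM in replicate 1, against 179.8 to 181 CPM in the other 3. The log2 ratio of lev-11 to the summed act-1 to act-4 counts in total RNA on EV was -2.02 in replicate 2, against -2.19 to -2.17 in the other 3.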

How the results depend on the processing

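Calls of the 9 members in TRAP over total RNA held under every alternative run except library size alone, which ended that of unc-94 (-0.0878 on dimt-1 RNAi, 0.0982 on EV). That scaling called 8210 genes on dimt-1 RNAi (1177 higher, 7033 lower, against 2472 and 1485 with TMM) and 10412 on EV (1228 and 9184, against 2493 and 4209). Leaving out each library gave 3024 to 4144 and 5737 to 7279 genes, always with 9 members. In total RNA no filter called 346 genes, DESeq2 659 with 1 member, voom 1624 with 3 members, and single libraries left out 0 to 2379 with 0 to 4 members. In TRAP a minimum of 10 counts called 8 genes, no filter 177, DESeq2 164 with 2 members, voom 129, and libraries left out 0 to 49 with 0 members. For translation efficiency library size alone called 9 genes, DESeq2 326 with 2 members, and libraries left out 0 to 46 with 0 members. For the shares and the ratios 0 tests passed with any library left out, where the smallest p is 0.0571.

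Apart from that of unc-94 on dimt-1 RNAi, signs turned only for values that were not called; the cause was not tested. With 1 library left out, act-5 ran from -0.16 to 0.00766 in total RNA, and in TRAP act-3 from -0.0783 to 0.18, act-5 from -0.0404 to 0.18, unc-78 from -0.18 to 0.019 and unc-94 from -0.26 to 0.0718. In TRAP unc-78 was 0.0373 and unc-94 0.0455 with library size alone, and unc-78 0.0259 with voom. In translation efficiency unc-78 was -0.0557 with DESeq2 and with its size factors, -0.0211 with a minimum of 10 counts and -0.0887 to 0.26 with 1 library left out; unc-60 was 0.0168 with voom and -0.23 to 0.0587 with 1 library left out. The difference in the log2 ratio to the muscle-type actins then ran from -0.11 to 0.0379 for unc-60 in TRAP and from -0.0107 to 0.0643 for lev-11 in total RNA.

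Replicate numbers did not pair the RNAi, and between the fractions on dimt-1 RNAi they gave a hint of pairing from the data, in which 1 of 4 correlations was under 0.1: deviations of same-numbered libraries correlated at -0.0525 to 0.0740 between RNAi in total RNA, -0.0224 to -0.00400 in TRAP, and between fractions at 0.0767 to 0.315 on dimt-1 RNAi (4 of 4 correlated best with their own number) and -0.0108 to 0.0301 on EV (3 of 4). With the replicate number as a block 1 gene of all was called in total RNA and no member call changed. The lysate as a block also changed no member call. In the paper's germline protocol, total RNA was taken from the same lysate as TRAP. The main tests of TRAP against total RNA treated the libraries as independent.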
